A study of Mus musculus with 12 samples.

Results

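The genes described are 39 that run or gauge cell division, taken by name from a fixed list, among 22141 genes with counts in cultured mouse islets. All 39 were found in the count table and all 39 were among the 15794 genes expressed highly enough to be tested. They fall into 4 roles: 15 genes of DNA replication, 13 of mitosis, 8 cyclins and kinases of G1 and S phase, and 3 inhibitors of cyclin-dependent kinases (CDKs). The assay was messenger RNA sequencing of whole pancreatic islets, the hormone-secreting cell clusters in which insulin-making beta cells are the majority. Islets of wild-type male mice aged 10 to 12 weeks were isolated and kept in culture in lots of about 120, and there were 4 groups of 3 libraries. The groups were vehicle, vehicle with C3a (a fragment of complement protein C3 that acts through its receptor on cells), palmitate (a saturated fatty acid used to stress islets in culture) and palmitate with C3a. No source used here gives the dose, the length of exposure or the number of animals behind a lot. The p-values therefore cover the spread from library to library, which may be technical.

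Division of a cell starts when D cyclins with the kinases CDK4 and CDK6, and then E cyclins with CDK2, release E2F transcription factors from RB family proteins. E2F factors turn on the replication genes, whose products load and fire the MCM helicase and copy DNA. The mitotic genes come on later, through the MuvB complex bound at CHR elements and the factors B-MYB and FOXM1. CDK inhibitors such as p21 (Cdkn1a), p27 (Cdkn1b) and p18 (Cdkn2c) hold the kinases back. In adult islets few cells divide, and Ccnd2 and Cdk4 are known to be needed for beta cells to multiply.

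The sequences around the transcription start show how the replication and mitotic genes differ in the motifs they hold. RefSeq promoter windows (mouse build GRCm38.p6, 250 bases before to 50 after a start) were matched by symbol for 30 of the 39 genes, in 34 windows. Not matched were Ccnd1, Ccnd2, Ccne2, Gins1, Gins2, Mcm4, Ccna2, Aurkb and Foxm1. Each window was searched on both strands for the E2F site (TTTCCCGC, TTTGGCGC, TTTCGCGC or TTTGCCGC), the CHR element (TTTGAA or TTCGAA) and the CCAAT box (CCAAT), which is bound by NF-Y. Below, 200 bases upstream of the start are printed 5′ to 3′ on the gene's strand for 4 replication genes and 4 mitotic genes, chosen because their levels or their sites carry the comparison, with letters of a matching motif in capitals. A motif on the other strand appears as its reverse complement, so that ATTGG is a CCAAT box and TTCAAA a CHR element.

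Mcm2, chr6:88898781-88898980, minus strand: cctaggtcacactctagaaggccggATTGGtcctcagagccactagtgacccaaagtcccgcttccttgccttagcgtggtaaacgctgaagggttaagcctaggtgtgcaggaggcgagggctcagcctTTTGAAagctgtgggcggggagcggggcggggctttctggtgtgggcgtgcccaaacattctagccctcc
Mcm5, chr8:75109309-75109508, plus strand: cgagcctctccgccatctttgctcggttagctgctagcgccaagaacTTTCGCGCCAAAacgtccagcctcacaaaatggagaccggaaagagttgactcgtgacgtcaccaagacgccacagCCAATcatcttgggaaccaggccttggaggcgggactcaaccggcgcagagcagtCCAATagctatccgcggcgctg
Mcm6, chr1:128359706-128359905, minus strand: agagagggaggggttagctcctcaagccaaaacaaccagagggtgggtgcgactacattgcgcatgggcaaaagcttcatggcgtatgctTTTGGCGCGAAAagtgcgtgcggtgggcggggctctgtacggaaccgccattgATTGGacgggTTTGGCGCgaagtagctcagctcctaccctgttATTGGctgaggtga
Rrm2, chr12:24708054-24708253, plus strand: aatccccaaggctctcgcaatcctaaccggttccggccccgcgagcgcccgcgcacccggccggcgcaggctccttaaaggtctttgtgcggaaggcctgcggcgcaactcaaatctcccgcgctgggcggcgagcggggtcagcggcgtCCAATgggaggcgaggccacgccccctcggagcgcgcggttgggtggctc
Cdk1, chr10:69352913-69353112, minus strand: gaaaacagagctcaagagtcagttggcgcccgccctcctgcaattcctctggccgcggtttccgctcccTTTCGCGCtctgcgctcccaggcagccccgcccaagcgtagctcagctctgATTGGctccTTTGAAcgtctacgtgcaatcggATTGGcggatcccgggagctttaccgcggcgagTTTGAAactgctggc
Mki67, chr7:135716380-135716579, minus strand: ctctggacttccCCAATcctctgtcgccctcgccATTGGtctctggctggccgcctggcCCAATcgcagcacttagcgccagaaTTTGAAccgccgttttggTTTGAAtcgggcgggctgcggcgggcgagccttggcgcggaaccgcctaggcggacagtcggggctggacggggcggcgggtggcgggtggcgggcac
Top2a, chr11:99024190-99024389, minus strand: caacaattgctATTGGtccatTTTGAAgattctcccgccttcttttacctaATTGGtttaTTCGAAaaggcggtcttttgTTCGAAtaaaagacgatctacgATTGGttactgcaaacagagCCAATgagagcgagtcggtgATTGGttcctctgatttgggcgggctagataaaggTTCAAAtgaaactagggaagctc
Plk1, chr7:122159235-122159434, plus strand: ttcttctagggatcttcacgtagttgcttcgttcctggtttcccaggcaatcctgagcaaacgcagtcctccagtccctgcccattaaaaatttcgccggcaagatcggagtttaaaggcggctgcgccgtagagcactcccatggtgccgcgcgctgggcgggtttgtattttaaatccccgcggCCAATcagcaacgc

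An E2F site was present in 6 of 13 replication windows (46.2%), in 1 of 10 mitotic windows (10%) and in 744 of all 32851 windows (2.26%). A CHR element was present in 8 of 10 mitotic windows (80%), in 3 of 13 replication windows (23.1%) and in 19.2% of all windows. These counts include matches downstream of the start. The E2F sites of Mcm3 and Cdt1 and the CHR elements of Bub1, Aurka and Plk1 lay only there. CCAAT boxes were in 11 of 13 replication windows, 9 of 10 mitotic windows and 37.4% of all windows. In Mcm6 the site TTTGGCGC at position -110, counted from the start, overlaps TTTCGCGC on the other strand at -106, and a further TTTGGCGC lies at -47. In Mcm5 the overlapping sites are at -153 and -149. Mki67, the proliferation marker, has CHR elements at -116 and -98, Top2a at -179, -140, -120 and -23, and Plk1 at 31, downstream of the start and so outside the printed stretch. Cdk1, the mitotic kinase, carries both kinds, with an E2F site at -131 and CHR elements at -71 and -15. Mcm2 has a CHR element at -70 and no E2F site of these letters in its window, and the windows of Pcna, Rrm2 and Ccnb1 have CCAAT boxes alone. Other genes of the same pathways, listed by role, showed shares on the same side of the share over all windows for E2F sites, with 28.3% of 60 other replication windows and 9.76% of 41 other mitotic windows. For CHR elements, 75.6% of other mitotic windows and 13.3% of other replication windows had a match. CCAAT boxes were in 73.2% of other mitotic windows but in 43.3% of other replication windows, near the 37.4% of all windows. A match is a run of letters in a window, and binding was not measured.

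**Figure D1:**
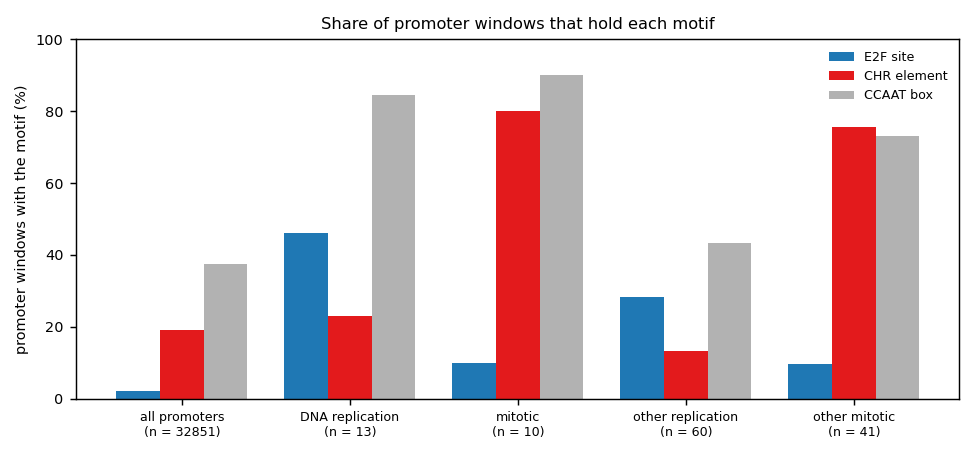
Share of RefSeq promoter windows (percent, vertical axis) that hold an E2F site, a CHR element or a CCAAT box, for all windows and for 4 gene lists, with the number of windows under each list. E2F sites stand at 46.2% in replication windows and 10% in mitotic windows, CHR elements at 23.1% and 80%.

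Expression of these genes covered a wide range. Per length, in TPM (each gene's share of all transcripts after division by length, computed here from counts and annotated transcript lengths), the vehicle group had Cdk4 at 161 ± 30.6 (SD, n = 3), Ccnd2 at 141 ± 3.28 and Ccnd1 at 90.1 ± 8.16. Pcna, the sliding clamp of DNA polymerases, followed at 46.7 ± 1.28 TPM, then Cdkn1a at 44.0 ± 7.12, Cdkn1b at 39.6 ± 2.29 and Ccnd3 at 33.6 ± 3.36. The SDs of Cdk4 and Ccnd2 overlap, as do those of Pcna and Cdkn1a and those of Cdkn1a and Cdkn1b, so the order within each of these pairs is not settled by the replicates, while Ccnd1 stood apart from its neighbours on both sides. The mitotic genes were far lower than the genes named so far, from 0.515 ± 0.330 TPM for Bub1 to 2.50 ± 0.787 for Cdk1, and Mki67 was at 0.946 ± 0.128. Low levels were not particular to them. The replication genes ran from 0.374 ± 0.0956 TPM for Cdc6 up to Pcna, a range that takes in that of the mitotic genes. The counts behind the mitotic genes were small: a library held 9 to 33 counts of Aurkb, 20 to 50 of Ccnb1 and 23 to 57 of Plk1. Among the replication genes, counts ranged from 10 to 29 of Gins1 and 12 to 39 of Cdc6 up to 996 to 3310 of Pcna.

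Library totals ran from 22216420 to 26110989 counts in the 4 libraries numbered 1, which the labels place in sequencing batch 1, and from 35876350 to 50264695 in the 8 libraries of batch 2. All 10 beta cell markers were present, at a summed level of 134577 to 192748 CPM (counts scaled so that a library sums to 1000000, used from here on). Lymphocyte markers summed to 2.05 to 8.89 CPM. Batch was a term in every fit. In 5 of 13 mitotic genes all batch 1 libraries were higher than all batch 2 libraries (Ccna2, Ccnb1, Birc5, Aurka and Aurkb), against 7.86% of all genes tested, and 3 of 15 replication genes did the same (Mcm5, Mcm10 and Gins2). In the other direction, 0 of the mitotic and replication genes were lower in all batch 1 libraries, against 8.09% of all genes. Ccna2, the cyclin of S phase and early mitosis, was at 5.85 to 6.37 CPM in batch 1 and 1.35 to 3.53 CPM in batch 2. Since all 4 groups have 1 library in batch 1 and 2 libraries in batch 2, comparisons between groups are balanced for it.

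In islets given palmitate, the replication genes Mcm2 and Pcna and the p21 gene Cdkn1a were higher than in vehicle, by 1.42, 1.37 and 1.71 times, and the G1 kinase gene Cdk4 by 1.16 times. Lower were the mitotic genes Ccnb1 and Plk1, the nucleotide-synthesis gene Rrm2, the E cyclin gene Ccne2 and the inhibitor genes Cdkn1b and Cdkn2c. With edgeR's quasi-likelihood test and Benjamini-Hochberg adjustment over all genes, 10 of the 39 passed (adjusted p under 0.05), 4 higher and 6 lower. Over all genes tested 25.4% passed, 13.4% higher and 12% lower, so the share of these genes that passed in this comparison was close to the background. In islets that also had C3a, 8 of 39 passed for palmitate, 4 higher and 4 lower, against 26.9% of all genes (13.8% higher and 13.1% lower). Both palmitate comparisons rest on separate libraries. Averaged over both (6 palmitate against 6 vehicle libraries), 9 of 39 passed, 4 higher and 5 lower, against 39.7% of all genes (20.3% higher and 19.4% lower). In the average the share of these genes was thus below that of all genes, a difference that was not tested.

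**Figure D2:**
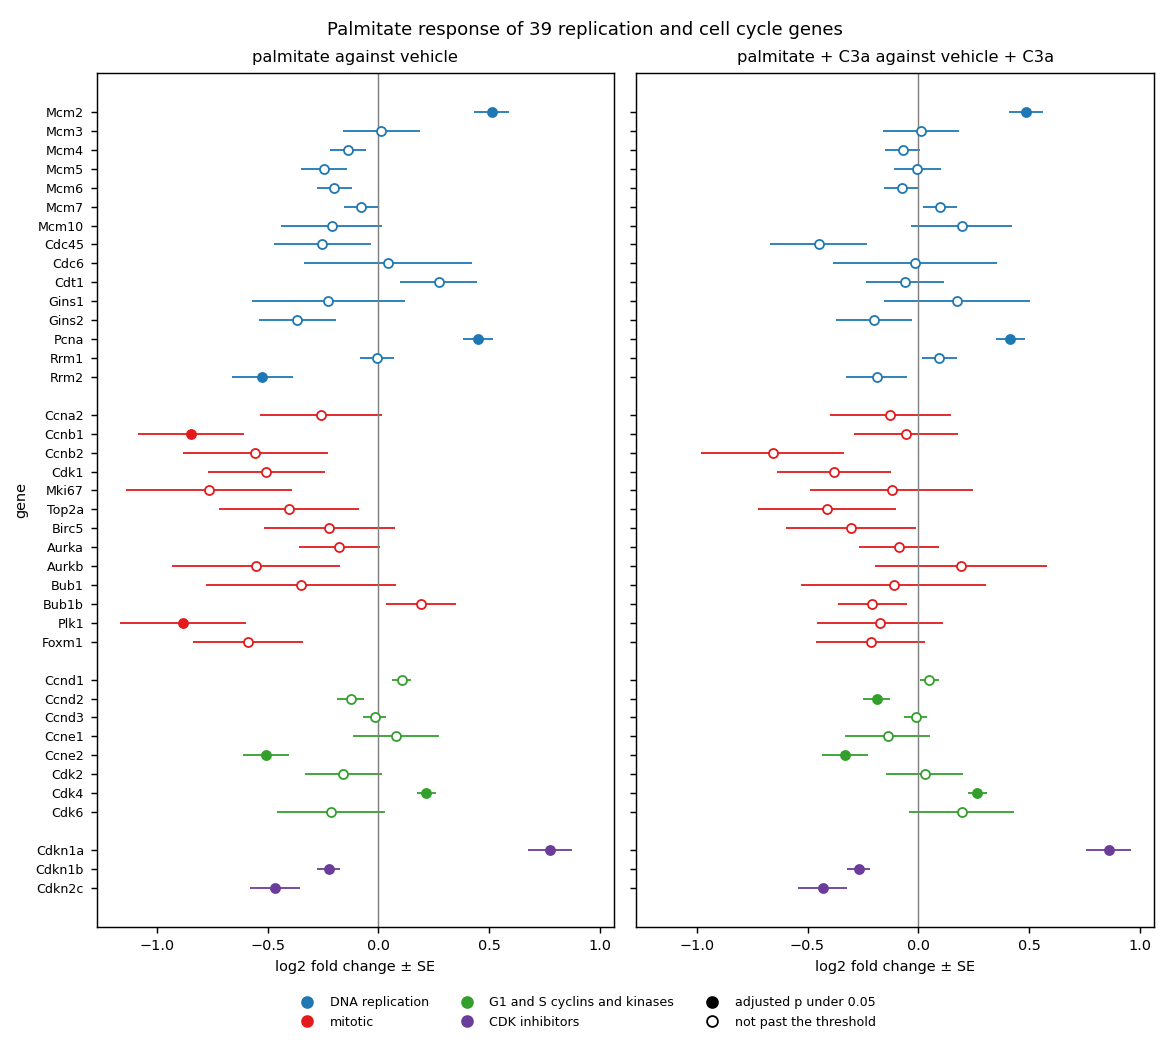
Log2 fold change (horizontal axis, with SE) of all 39 genes for palmitate against vehicle, without C3a on the left and with C3a on the right, 3 libraries a group, grouped by role, with filled points for genes past the threshold. The same 4 genes lie to the right and filled in both panels (Mcm2, Pcna, Cdk4 and Cdkn1a), while the mitotic genes lie mostly to the left of 0 with wide errors.

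Among the 15 replication genes, Mcm2 and Pcna went one way and Rrm2 the other, and the remaining 12 did not pass. Over all genes tested, 13.4% were called higher and 12% lower without C3a. Mcm2, a subunit of the MCM2-7 helicase (gene ENSMUSG00000002870.8, chr6:88883474-88898780, GENCODE M21), was at 13.7, 12.7 and 15.2 CPM in vehicle libraries 1, 2 and 3, at 13.6, 13.996 and 14.5 in vehicle with C3a, at 19.2, 20.6 and 19.3 in palmitate and at 19.8, 21.1 and 18.3 in palmitate with C3a. All 6 palmitate libraries were above all 6 vehicle libraries, as in 9.02% of all genes tested. Mcm2 rose by 0.51 ± 0.08 (SE) on the log2 scale (edgeR adjusted p = 0.000691) and, with C3a, by 0.49 ± 0.08 (adjusted p = 0.000878). Within batch 1 the palmitate difference without C3a was 0.47, and within batch 2 the fitted value was 0.53 ± 0.11.

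Pcna (ENSMUSG00000027342.14, chr2:132249162-132253314) was at 48.1, 46.5 and 46.2 CPM in vehicle, 44.9, 45.0 and 51.9 in vehicle with C3a, 59.0, 66.6 and 66.6 in palmitate and 56.1, 67.7 and 65.6 in palmitate with C3a. Its 6 palmitate libraries, too, were above all 6 vehicle libraries, the batch 1 libraries being the lowest of the palmitate libraries. Pcna rose by 0.45 ± 0.07 without C3a (edgeR adjusted p = 0.000558) and by 0.42 ± 0.07 with it (adjusted p = 0.00086). The difference without C3a was 0.29 in batch 1 and 0.53 ± 0.07 in batch 2.

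Rrm2, the regulated small subunit of ribonucleotide reductase (ENSMUSG00000020649.11, chr12:24708241-24714146), was at 4.80, 3.92 and 3.98 CPM in vehicle, 4.65, 3.32 and 3.38 in vehicle with C3a, 3.87, 2.43 and 2.66 in palmitate and 3.40, 3.16 and 3.23 in palmitate with C3a. Each palmitate library was below the vehicle library of the same number. Without C3a all palmitate libraries were below all vehicle libraries, while with C3a the ranges overlapped. Batch 1 libraries were the highest of every group. Rrm2 fell by 0.52 ± 0.14 on the log2 scale without C3a (edgeR adjusted p = 0.0153), while with C3a the value was -0.19 ± 0.14 (adjusted p = 0.355). Averaged over both it fell by 0.36 ± 0.10 (adjusted p = 0.0117). The call without C3a was lost without vehicle replicate 3, palmitate replicate 2 or palmitate replicate 3, with adjusted p reaching 0.143 over all alternatives. Rrm1, the large subunit of the same enzyme, was at -0.0061 ± 0.08 without C3a.

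None of the other 5 subunits of the MCM2-7 ring passed in either palmitate comparison. Without C3a, Mcm3 was at 0.01 ± 0.17, Mcm4 at -0.14 ± 0.08, Mcm5 at -0.25 ± 0.11, Mcm6 at -0.20 ± 0.08 and Mcm7 at -0.08 ± 0.08. Their edgeR adjusted p values ran upward from 0.0922, that of Mcm6, which passed when vehicle replicate 1 was left out (0.0474). Mcm6 was at 16.3, 20.0 and 19.6 CPM in vehicle, 18.5, 19.3 and 19.4 in vehicle with C3a, 16.8, 14.8 and 17.2 in palmitate and 16.9, 19.4 and 18.1 in palmitate with C3a. No test of 1 subunit against another was made. Of the loading and firing factors, Cdt1 was at 0.27 ± 0.17, Cdc6 at 0.04 ± 0.38, Cdc45 at -0.25 ± 0.22, Mcm10 at -0.21 ± 0.23 and Gins1 at -0.23 ± 0.35.

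Gins2, a subunit of the GINS complex of the replicative helicase (ENSMUSG00000031821.11, chr8:120578633-120589304), followed the sequencing batch rather than the groups. It was at 80.5, 75.9, 57.2 and 64.1 CPM in the batch 1 libraries (vehicle first, then vehicle with C3a, then palmitate without and with C3a), and at 0.783 to 1.53 CPM in the 8 libraries of batch 2. Nearly all batch 1 counts belonged to the retained-intron transcript Gins2-203, with 1422 to 1887 counts in each batch 1 library and 0 in all 8 of batch 2. The protein-coding transcript had 25 to 64 counts in batch 1 and 18 to 51 in batch 2. Of the 4097 exonic bases of Gins2, 2758 (67.3%) lie under exons of Gse1 on the other strand, and no source used here says whether the quantification used strand, so reads of both genes cannot be told apart. Palmitate values of Gins2 were -0.37 ± 0.17 without C3a (edgeR adjusted p = 0.155) and -0.47 ± 0.34 with transcript Gins2-203 left out (adjusted p = 0.353), an alternative chosen after seeing the data.

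**Figure D3:**
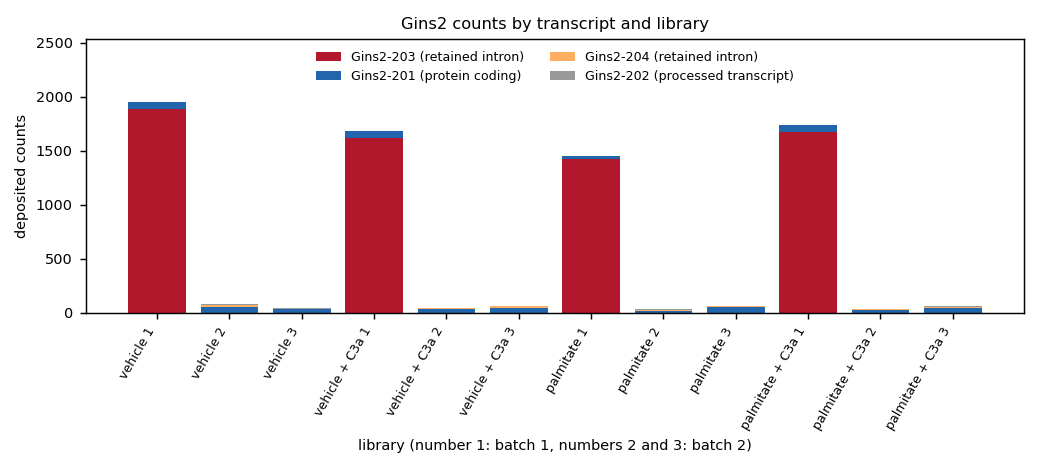
Deposited counts of Gins2 (vertical axis) in each of the 12 libraries, stacked by annotated transcript. The 4 libraries of batch 1 hold 1422 to 1887 counts of the retained-intron transcript Gins2-203, which is at 0 in the other 8.

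Among the 13 mitotic genes, 12 lay below 0 for palmitate against vehicle. Of these, 2 passed, Ccnb1 and Plk1, beside 12% of all genes tested that were called lower. The median log2 fold change of the 13 was -0.51, against -0.14 for the replication genes and -0.015 for all genes tested. With C3a, 12 of 13 again lay below 0 but 0 passed, beside 13.1% of all genes called lower. The median was then -0.17, against -0.0039 for the replication genes and 0.011 for all genes. For the average, all 13 were below 0 (median -0.40) and 0 passed, beside 19.4% of all genes called lower. An unadjusted p under 0.05 was reached by 5 of the 13, and by 7506 of the 15794 genes tested. The replication genes had 7 of 15 above 0 in the average and a median of -0.0080. These medians describe the lists and the difference between them was not tested. SEs were wide for the mitotic genes, with a median of 0.28 against 0.14 for the replication genes.

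Ccnb1, the cyclin B1 that activates Cdk1 at entry into mitosis (ENSMUSG00000041431.16, chr13:100778650-100786570), was at 2.07, 1.02 and 1.05 CPM in vehicle, 1.31, 0.907 and 1.08 in vehicle with C3a, 1.11, 0.540 and 0.629 in palmitate and 1.51, 1.03 and 0.753 in palmitate with C3a. Palmitate without C3a was the lowest group in each of the 3 sets of same-numbered libraries, and palmitate with C3a was above vehicle with C3a in sets 1 and 2. Ccnb1 fell by 0.85 ± 0.24 on the log2 scale without C3a (edgeR adjusted p = 0.0224), and with C3a it was at -0.05 ± 0.24 (adjusted p = 0.898). The difference between these 2 palmitate responses was 0.79 ± 0.34 (unadjusted p = 0.0368), which did not pass after edgeR's adjustment over all genes. The call ended within batch 2 (-0.81 ± 0.32, adjusted p = 0.141) and on leaving out vehicle replicate 1 or 3 or any palmitate library, with an adjusted p of up to 0.207 over all alternatives.

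Plk1, a kinase of spindle assembly and mitotic exit (ENSMUSG00000030867.7, chr7:122159439-122169873), was at 2.36, 1.08 and 0.936 CPM in vehicle, 1.76, 0.744 and 0.818 in vehicle with C3a, 0.988, 0.621 and 0.629 in palmitate and 1.11, 1.06 and 0.595 in palmitate with C3a. The batch 1 vehicle library was the highest, and the groups overlapped across batches. Plk1 fell by 0.88 ± 0.28 without C3a (edgeR adjusted p = 0.0396), and with C3a was at -0.17 ± 0.28 (adjusted p = 0.708). The call without C3a was lost under 11 of 19 alternatives, among them the absence of any vehicle or palmitate library and batch 2 alone (-0.68 ± 0.37).

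Mki67, whose protein Ki-67 marks dividing cells, was at 7.45, 6.67 and 5.29 CPM in vehicle, 6.77, 6.93 and 4.29 in vehicle with C3a, 5.14, 3.08 and 3.38 in palmitate and 5.43, 8.47 and 2.62 in palmitate with C3a. Every palmitate library without C3a was below every vehicle library without C3a, while replicate 2 of palmitate with C3a was the highest of all 12. The log2 fold changes were -0.76 ± 0.38 without C3a (edgeR adjusted p = 0.176) and -0.12 ± 0.37 with it (adjusted p = 0.853). The value without C3a passed in a fit of the compared groups alone (edgeR adjusted p = 0.0077) and without palmitate with C3a replicate 2 (adjusted p = 0.0206), and either setting took the lower mitotic genes from 2 to 3. Of the other mitotic genes the smallest p values of the average belonged to Ccnb2, the second B cyclin, at -0.61 ± 0.23 (edgeR adjusted p = 0.0553), Foxm1 at -0.40 ± 0.17 (0.0893) and Cdk1 at -0.44 ± 0.18 (0.0776). Bub1b, a spindle checkpoint kinase, was the 1 mitotic gene above 0 without C3a, at 0.19 ± 0.16, and Aurkb, the kinase of the chromosomal passenger complex, the 1 above 0 with C3a, at 0.19 ± 0.39.

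The mitotic values depended on single libraries. Without C3a, 10 of 13 were lower in palmitate in all 3 same-numbered pairs, and with C3a 3 of 13 were (Ccnb2, Cdk1 and Top2a). Of the 15 replication genes, 5 were lower in all 3 pairs without C3a and 3 with C3a. The same count was not made over all genes tested, so no background share stands beside these counts. The pairing by number is weak within batch 2. In palmitate with C3a replicate 2, 9 of 13 mitotic genes were above the vehicle library of that number, with a median log2 difference of 0.21, while replicates 1 and 3 of that group were at -0.42 and -0.31. Without that library, the mitotic genes past the threshold went from 0 to 6 for the average (Ccnb1, Ccnb2, Mki67, Top2a, Plk1 and Foxm1, all lower) and from 0 to 2 with C3a (Mki67 and Top2a). Mki67 was then at -0.76 in the average (edgeR adjusted p = 0.00358) and Top2a, the topoisomerase that untangles chromosomes, at -0.65 (adjusted p = 0.00781). That library was singled out because its mitotic values were high. More mitotic genes called lower without it therefore follow from the choice and give no support for a fall. Over all genes, leaving out each library in turn gave 5528 to 6200 calls in the average (6271 with all libraries) and 3023 to 4260 with C3a (4246).

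Summed over the 13 mitotic genes, CPM were 42.9, 27.8 and 24.0 in vehicle, 40.4, 31.5 and 24.9 in vehicle with C3a, 32.1, 18.1 and 19.7 in palmitate and 31.8, 33.3 and 17.6 in palmitate with C3a. Summed over the 14 replication genes other than Gins2, CPM were 151.6, 146.3 and 151.4 in vehicle, 147.6, 144.8 and 157.1 in vehicle with C3a, 169.7, 164.2 and 165.7 in palmitate and 165.4, 178.6 and 169.1 in palmitate with C3a. The replication sums of all palmitate libraries were above those of all vehicle libraries, and the mitotic sums overlapped. The higher replication sums rested on Pcna and Mcm2. Summed over the other 12 replication genes, CPM were 87.1 to 90.1 in vehicle, 85.8 to 90.6 in vehicle with C3a, 76.9 to 91.4 in palmitate and 85.2 to 89.8 in palmitate with C3a, and all groups overlapped. Endothelial markers were also lower with palmitate: 8 of 13 were lower in palmitate without C3a and 0 higher, 4 of 13 with C3a and 10 of 13 in the average, beside 12%, 13.1% and 19.4% of all genes tested that were called lower. Their summed level was 264.5 to 364.1 CPM in vehicle, 245.7 to 334.1 in vehicle with C3a, 150.1 to 262.9 in palmitate and 158.9 to 273.5 in palmitate with C3a. Within a batch it was lower in every palmitate library than in every vehicle library. None of the 13 markers was at 0 in all libraries. Their part in the mitotic values was not tested, and in whole islets fewer cells of a type and less RNA per cell cannot be told apart. Of 12 fibroblast and pericyte markers, 3 were lower in palmitate without C3a, 2 with C3a and 4 in the average, and 0 were higher in any of these comparisons. Their median log2 values were -0.55, 0.13 and -0.05. In palmitate with C3a replicate 3 they summed to 1579 CPM, against 236.2 to 887.3 in the other 11 libraries, and their part in the members' values was not tested either.

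**Figure D4:**
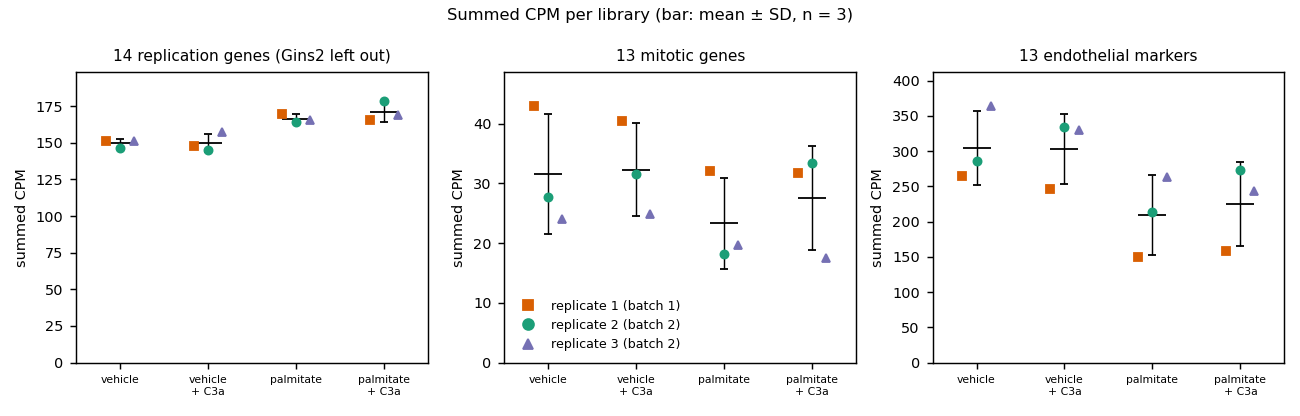
Summed CPM (vertical axes, from 0) of 14 replication genes, 13 mitotic genes and 13 endothelial markers in each library, with the mean and SD of each group of 3. The replication sums are all higher with palmitate (164.2 to 178.6 against 144.8 to 157.1), which rests on Pcna and Mcm2, and the mitotic sums are spread and overlap between groups. The endothelial sums overlap across batches, but within a batch every palmitate library is below every vehicle library.

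The cyclins and kinases of G1 and S phase held both the highest of these genes per length, Cdk4 and Ccnd2, and the lowest, Cdk6, at 0.206 TPM in vehicle. The level of Cdk4 per length differed by batch, with a mean of 144 TPM in batch 1 and 189 in batch 2. Ccnd2 was at 139 and 131 TPM. Mean CPM of Cdk4 went the other way, 1.23 times higher in batch 1. Whether the transcript makeup given below set this difference was not tested. Of 8, 1 was higher and 1 lower in palmitate without C3a, beside 25.4% of all genes tested that were called. With C3a 1 was higher and 2 lower, beside 26.9%, and the medians were -0.07 and 0.0079. Cdk4 (ENSMUSG00000006728.12, chr10:127063534-127067920) was at 140.1, 121.8 and 114.9 CPM in vehicle, 142.3, 112.1 and 116.7 in vehicle with C3a, 168.5, 134.3 and 135.7 in palmitate and 172.4, 132.7 and 141.6 in palmitate with C3a. Each palmitate library was above the vehicle libraries of its own batch, while the groups overlapped across batches. Cdk4 rose by 0.22 ± 0.04 (edgeR adjusted p = 0.00363) and, with C3a, by 0.27 ± 0.04 (adjusted p = 0.00091). In batch 2 alone the value without C3a was 0.20 ± 0.06 and did not pass (adjusted p = 0.0673). The makeup of its transcripts differed by batch, since the longest protein-coding transcript held 70.2% to 73.5% of Cdk4 counts in batch 1 and 15.3% to 22.7% in batch 2, and 641 exonic bases lie under Tspan31 on the other strand.

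Ccne2, an E cyclin that activates Cdk2 for S phase (ENSMUSG00000028212.16, chr4:11191351-11204779), was at 8.15, 6.71 and 6.60 CPM in vehicle, 8.08, 5.84 and 6.50 in vehicle with C3a, 5.26, 4.64 and 5.08 in palmitate and 6.31, 5.20 and 4.68 in palmitate with C3a. All palmitate libraries without C3a were below all vehicle libraries of either kind, and with C3a the ranges overlapped across batches. Ccne2 fell by 0.51 ± 0.10 on the log2 scale without C3a (edgeR adjusted p = 0.00404) and by 0.33 ± 0.10 with it (adjusted p = 0.0333, lost under 11 of 19 alternatives, among them the absence of 5 of the 6 libraries compared, all but vehicle with C3a replicate 2). In batch 2 alone the value without C3a was -0.45 ± 0.13 (adjusted p = 0.0643). In the average Ccne2 fell by 0.42 ± 0.07 and the call held under all 18 alternatives. Of its exonic bases, 609 lie under Ints8 on the other strand. Ccne1, the other E cyclin, was at 0.08 ± 0.19 and -0.14 ± 0.19.

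Ccnd2, the main D cyclin of beta cells (ENSMUSG00000000184.12, chr6:127125162-127152193), was at 649.5, 579.0 and 591.4 CPM in vehicle, 622.8, 624.6 and 575.8 in vehicle with C3a, 575.6, 594.9 and 497.1 in palmitate and 553.3, 533.9 and 512.8 in palmitate with C3a. Without C3a the groups overlapped and the value was -0.12 ± 0.06 (edgeR adjusted p = 0.17). With C3a all palmitate libraries were below all vehicle libraries, and Ccnd2 fell by 0.19 ± 0.06 (adjusted p = 0.0416), a call lost under 10 of 19 alternatives. In the average it fell by 0.16 ± 0.04 (edgeR adjusted p = 0.0133). Ccnd1 was at 208.3, 232.6 and 228.3 CPM in vehicle, 202.4, 239.8 and 230.3 in vehicle with C3a, 212.5, 256.9 and 251.4 in palmitate and 218.2, 244.3 and 232.7 in palmitate with C3a. Each palmitate library was above its same-numbered vehicle library, but the log2 differences of 0.10 ± 0.04 and 0.05 ± 0.04 did not pass (edgeR adjusted p = 0.0978 and 0.439), and in the average Ccnd1 was at 0.08 ± 0.03 (0.0613). It passed in the average with the replicate number as a block (edgeR adjusted p = 0.0383), and with DESeq2 both in the average and without C3a (adjusted p = 0.0476 without C3a). Of its exonic bases, 1100 lie under LTO1 on the other strand. Ccnd3, Cdk2 and Cdk6 were at -0.02 ± 0.05, -0.16 ± 0.17 and -0.21 ± 0.24 without C3a.

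The 3 CDK inhibitors all passed in both palmitate comparisons, 1 higher and 2 lower. Over all genes tested, 25.4% passed without C3a and 26.9% with it. Cdkn1a, which encodes p21 and is a target of p53 (ENSMUSG00000023067.14, chr17:29090976-29100727), was at 49.3, 64.4 and 53.001 CPM in vehicle, 53.6, 49.2 and 50.9 in vehicle with C3a, 93.1, 102.3 and 90.3 in palmitate and 93.2, 101.3 and 83.9 in palmitate with C3a. All 6 palmitate libraries were above all 6 vehicle libraries. Cdkn1a rose by 0.78 ± 0.10 (edgeR adjusted p = 0.000298) and, with C3a, by 0.86 ± 0.10 (adjusted p = 0.000142), with 0.91 in batch 1 and 0.72 ± 0.12 in batch 2 for the comparison without C3a. It had the largest rise of the 39 genes in all 3 palmitate comparisons.

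Cdkn1b, which encodes p27 (ENSMUSG00000003031.14, chr6:134920401-134925513), was at 82.7, 82.7 and 79.7 CPM in vehicle, 84.9, 80.2 and 79.1 in vehicle with C3a, 69.7, 70.4 and 69.8 in palmitate and 64.4, 65.2 and 72.6 in palmitate with C3a. All 6 palmitate libraries were below all 6 vehicle libraries, as in 8.33% of all genes tested. Cdkn1b fell by 0.22 ± 0.05 (edgeR adjusted p = 0.0081) and, with C3a, by 0.27 ± 0.05 (adjusted p = 0.00258). In batch 2 alone the adjusted p was 0.0649 and 0.0572, with values of -0.21 ± 0.06 in both comparisons.

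Cdkn2c, which encodes p18, an inhibitor of CDK4 and CDK6 (ENSMUSG00000028551.14, chr4:109660876-109667189), was at 5.50, 8.26 and 7.70 CPM in vehicle, 6.23, 7.76 and 7.01 in vehicle with C3a, 4.07, 5.69 and 5.73 in palmitate and 3.66, 5.95 and 6.14 in palmitate with C3a. Batch 1 libraries were the lowest of each group, and within a batch every palmitate library was below every vehicle library. Cdkn2c fell by 0.47 ± 0.11 (edgeR adjusted p = 0.0095) and, with C3a, by 0.43 ± 0.11 (adjusted p = 0.0136). The call with C3a was lost in batch 2 alone (-0.29 ± 0.12, adjusted p = 0.136) and without the batch 1 library of either compared group.

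**Figure D5:**
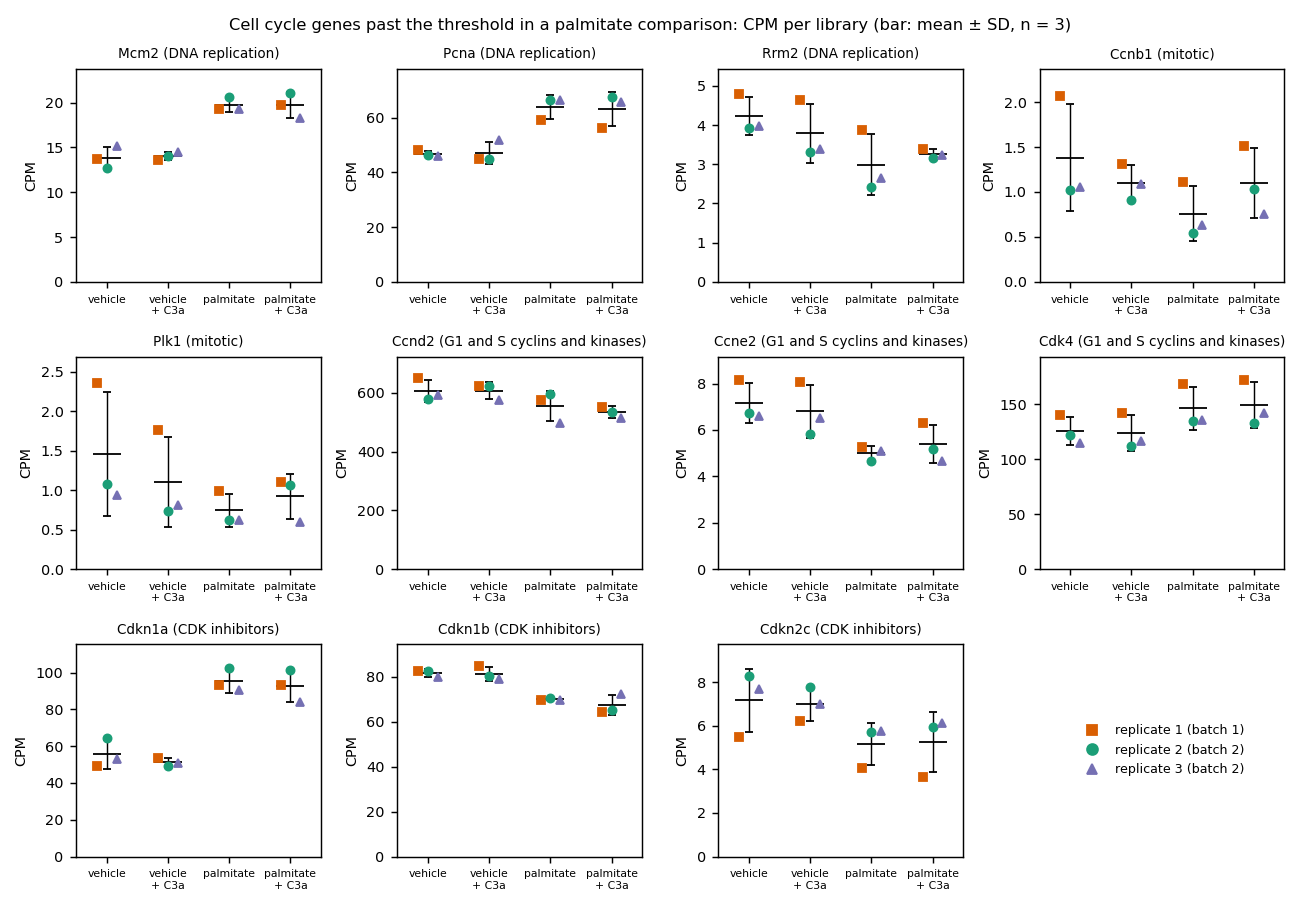
CPM of the 11 genes past the threshold in at least 1 palmitate comparison (vertical axes, from 0), each point a library, with the mean and SD of 3 libraries a group and the batch given by the symbol. Over all 6 palmitate and 6 vehicle libraries, Mcm2, Pcna and Cdkn1a separate upward and Cdkn1b downward, and the other 7 overlap. For Ccnb1 all batch 1 libraries are above all batch 2 libraries.

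C3a itself changed none of the 39 genes past the threshold. For C3a within palmitate, C3a within vehicle and the interaction of C3a with palmitate, edgeR called 0 of 39 genes and 0% of all genes tested. DESeq2 also called 0 of the 39, and 1, 2 and 0 genes of all tested. At an unadjusted p under 0.05, 3, 1 and 1 of the 39 passed, against 2.72%, 2.2% and 1.59% of all genes. Within palmitate these were Mcm5 at 0.29 ± 0.11, Mcm7 at 0.22 ± 0.08 and Ccnb1 at 0.55 ± 0.24, within vehicle Bub1b at 0.43 ± 0.16, and for the interaction Ccnb1. The mitotic genes had 12 of 13 above 0 for C3a within palmitate, with a median of 0.25 against 0.00029 over all genes; palmitate with C3a replicate 2, in which the mitotic genes were high, is 1 of the 3 libraries behind it.

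Beyond the 39, lists of other genes of the same pathways were counted, first for the average palmitate effect. Over all genes tested, 39.7% passed in the average, 25.4% without C3a and 26.9% with C3a. Of 57 other replication genes, 10 were higher and 6 lower in the average, against 2 higher and 4 lower in palmitate without C3a and 3 and 3 with C3a. The smallest p values belonged to Orc6, of the origin recognition complex, which fell by 0.44 ± 0.04, Rpa1, of the single-strand binding protein RPA, which fell by 0.29 ± 0.03, Rrm2b, the p53-inducible ribonucleotide reductase subunit, which fell by 0.23 ± 0.04, and Dbf4, the activator of the kinase CDC7, which rose by 0.37 ± 0.07. Of 47 other mitotic genes, 2 were higher and 6 lower (median -0.20), with Ncapd2, of condensin, at -0.54 ± 0.06, Racgap1, of cytokinesis, at -0.31 ± 0.06, Spc25, of the kinetochore, at 0.60 ± 0.06 and Cks1b, a CDK-binding subunit, at 0.29 ± 0.06. Spc25 was at 81.8 to 126.3 CPM in vehicle libraries and 128.1 to 195.5 in palmitate libraries, while the 13 mitotic members summed to at most 42.9 CPM. Whether Spc25 gauges mitosis in these islets was not tested. Without C3a the other mitotic genes had 2 higher and 5 lower, and with C3a 2 and 2.

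Of 25 regulators of the E2F, RB and DREAM system, 5 were higher and 6 lower in the average, 4 and 4 without C3a, and 3 and 5 with C3a. Over all genes tested, 20.3% were called higher and 19.4% lower in the average. The shares were 13.4% and 12% without C3a, and 13.8% and 13.1% with C3a. E2f2, an activating E2F, fell by 1.12 ± 0.09, Tfdp2, a dimer partner of E2F, by 0.65 ± 0.05, and Rbl2, the pocket protein p130, by 0.28 ± 0.04, while E2f4, a repressive E2F, rose by 0.23 ± 0.03. Of 5 other CDK inhibitors, 0 were higher and 2 lower in the average: Cdkn2d, which encodes p19, fell by 0.62 ± 0.06, and Cdkn2a by 0.84 ± 0.30 (edgeR adjusted p = 0.0421). Cdkn2a was very low, at 0.316 to 0.538 CPM in vehicle libraries and 0.144 to 0.337 in palmitate libraries. Cdkn2d alone passed in each palmitate comparison taken singly. Of 20 p53 targets other than Cdkn1a, 7 were higher and 3 lower, with 6 and 1 without C3a and 7 and 2 with C3a. Plk3, a stress-responsive kinase, rose by 1.64 ± 0.05, Aen, an exonuclease, by 0.40 ± 0.04 and Sesn2, a stress-inducible sestrin, by 0.31 ± 0.03, and Sesn1 fell by 0.56 ± 0.04.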

How the data were processed

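The authors deposited estimated counts per transcript as whole numbers, not normalized, for all 12 libraries. The submitters' processing notes name kallisto, DESeq2 and GRCm38, without versions or roles. Per the labels' protocols, libraries came from a strand-marking messenger RNA kit; no source used here gives the strand setting or transcriptome release of the quantification. Of 71524 transcripts, 69942 had an identifier in GENCODE M21 and were added up to 22141 genes; the 1582 others held 0.581% to 0.677% of a library's counts and were left out. Summed counts were rounded, filtered with filterByExpr (15794 genes) and tested in R 4.3.3 with edgeR 4.0.16 (TMM, robust quasi-likelihood, group and batch, 7 residual degrees of freedom), two-sided, with adjustment over all genes. SE was taken as |log2 fold change| over the root of F. CPM use TMM library sizes; same-numbered differences add 0.5 CPM.

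Genes were named by a rule: all members by role, library values for those past the threshold in a palmitate comparison and for Mki67, Ccnd1, Cdkn1a, Cdkn1b, Ccnd2 and Pcna, other members by smallest p, and up to 4 of each other list by smallest p in the average. Mcm6 was added after its values were seen. Members and lists were chosen with earlier results of these data known. Alternatives were DESeq2 1.42.0, RLE factors, no filter, a replicate block, no batch term, batch 2 alone, the compared groups alone and each library left out. Promoter windows came from RefSeq. The fit was tested on simulated data. Labels put number 1 in batch 1, and numbers 2 and 3 share a tag across groups. Over 18 pairs of libraries with a common number, the lowest correlation of deviations from group means was 0.395. This value includes the difference between batches. Over the 12 pairs of batch 2 the lowest was 0.0799 and the mean 0.115. These 12 pairs are not independent, since each deviation there is from a mean of 2 libraries. The numbers were taken to pair the libraries, on weak ground within batch 2. No 2 libraries agreed within sampling noise (lowest chi-squared per degree of freedom 7.35). Genes with few counts, many of the mitotic ones among them, carry wide counting errors.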

Additional observations from a re-analysis of the deposited data

How the results depend on the processing

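Mcm2, Pcna and Cdkn1a kept their direction and their call under all alternatives in the 3 palmitate comparisons, and no called gene changed sign. Without a batch term, genes called fell to 1841 (palmitate), 2074 (palmitate with C3a against vehicle with C3a) and 4079 (average), lower members to 1, 1 and 2 and lower mitotic members in palmitate to 0; the cause was not tested. With batch 2 alone, which has fewer libraries, genes called were 2058 and 2331 in the single comparisons, lower members 2 and 0, lower mitotic members 0, and C3a within palmitate had 1 gene called. With no filter on low counts 1 mitotic member was lower in palmitate and 3 genes were called for C3a within vehicle. With the compared groups alone 2 members were lower with C3a and 2 genes were called for C3a within vehicle. DESeq2 called 1 gene for C3a within palmitate and 2 within vehicle. With the replicate number as a block, 10, 8 and 10 members were called in the 3 palmitate comparisons (main 10, 8 and 9), the addition being Ccnd1 in the average, and the pairing changed no other count of members. Leaving out each library in turn gave 2760 to 4228, 3023 to 4260 and 5528 to 6200 genes called, 4 to 4, 4 to 4 and 4 to 5 members higher, 3 to 7, 1 to 4 and 5 to 12 members lower, and 0 to 3, 0 to 2 and 0 to 6 mitotic members lower; the highest mitotic counts came without palmitate with C3a replicate 2. For C3a within either condition it gave 0 to 1 genes. The mitotic genes had 9 to 346 counts a library, and whether depth set their wide SEs was not tested.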

Other observations

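Some other markers followed the sequencing batch. Summed alpha cell markers were at 33730 to 39009 CPM in the 4 batch 1 libraries and at 24597 to 27275 CPM in the 8 of batch 2, while duct markers overlapped. Of 10 beta cell markers, 6 were lower and 1, G6pc2, was higher in the average palmitate effect (edgeR), beside 19.4% and 20.3% of all genes tested that were called lower and higher.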
